A study of Mus musculus with 21 samples.

Results

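Glutathione, thioredoxin and peroxide defence genes were followed through the growth of the mouse ovarian follicle. The members were taken by name, as every detected gene whose symbol begins with Gst, Gpx, Prdx or Txn, together with Gclc, Gclm, Gss, Sod1, Sod2, Sod3, Nqo1 and Hmox1, and they numbered 48 genes read by 64 probes among 10067 genes and 13626 probes with a symbol that were detected. A probe counted as detected where its signal stood above the negative control beads of the array at p under 0.05 on at least 3 of 21 arrays. Of 56 genes on the array that fitted these names, 8 were not detected, namely Gpx2, Gpx5, Gstm3, Gstp3, Gstt4, Txndc8, Txndc16 and Txndc17. Gsr, Ggt1, Cat, Glrx, Txn1, Prdx5 and Prdx6 belong to the same pathways but were not named in the annotation used here and were not analysed.

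The arrays were Illumina bead arrays of CD1 female mice, 3 per stage, which compared successive stages of follicle growth. PMD3 and PMD4 were entire ovaries of postnatal days 3 and 4, in which primordial follicles prevail by title, so that stroma, vessels and surface epithelium were part of the sample. PRIMARY were primary follicles of 70 to 90 µm at day 10, TLS were secondary follicles with a double layer of granulosa cells (100 to 130 µm, day 12), MLS were multilayered secondary follicles (150 to 180 µm, day 16), PREANTRAL were follicles of 200 to 300 µm at day 18, and ANTRAL were follicles of 400 to 600 µm taken by dissection at day 20. The ANTRAL mice had received pregnant mare serum gonadotropin, which acts like follicle stimulating hormone, and no other stage names it, while a further label field states for all samples that none were treated. Day, follicle size and, for ANTRAL, the hormone changed together with the stage and cannot be told apart. Per the labels the 3 samples of a stage came from pooled follicles, so the p-values measure the spread between samples, which may be partly technical.

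Glutathione is a small thiol made from glutamate, cysteine and glycine by glutamate-cysteine ligase and glutathione synthetase. Glutathione peroxidases use it to reduce peroxides and glutathione transferases couple it to reactive compounds, while peroxiredoxins draw on thioredoxin for the same purpose and superoxide dismutases supply the peroxide from superoxide. In the ovary glutathione is known for its build-up in the growing oocyte, where it serves the remodelling of sperm chromatin after fertilisation, and for protecting granulosa cells, which make steroids and thereby oxidants. Antioxidant genes of this kind are classic targets of the transcription factor NRF2, which binds the antioxidant response element.

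Between 12363 and 13953 of 25697 probes were detected per array, and median signals ran from 91.5 to 143 before normalization. Oocyte markers fitted the stage order in the isolated follicles: the summed level of 10 detected genes of 14 listed was 127400 to 130900 on the PRIMARY arrays and 5274 to 10570 on the ANTRAL arrays, where Ddx4 was not detected. Samples were grouped by title, against which some labels stood. PREANTRAL repeat 2 carries the source, day and size of an antral sample, but its values correlated at 0.986 with the other PREANTRAL arrays and at 0.942 with ANTRAL. PRIMARY repeat 3 carries a PMD3 tag, but correlated at 0.987 with PRIMARY and at 0.916 with PMD3. ANTRAL repeat 2 is described as repeat 3, so that the columns with a shared name are called ANTRAL a and b. PMD3 repeat 2 and TLS repeat 2 stood furthest from their own stages, with correlations of 0.969 and 0.964. TLS repeat 1 correlated more with MLS (0.9778) than with the other TLS arrays (0.9708), and TLS repeat 3 more with PRIMARY (0.9797) than with TLS (0.9717). PMD3 repeats 1 and 3 correlated more with PMD4 (0.9849 and 0.9858) than with the other PMD3 arrays (0.9795 and 0.9789). Without PRIMARY repeat 3 the count of changed member probes in PRIMARY against PMD4 was 20 in place of 26 and that in ANTRAL against PRIMARY 29 in place of 37, and without PREANTRAL repeat 2 that in ANTRAL against PREANTRAL was 14 in place of 18. Levels below are log2 intensities after background correction and quantile normalization, given in the order of the repeats (ANTRAL in the order 1, a, b), with n = 3 arrays per stage throughout. Each gene is read by its brightest detected probe, and differences were tested with limma across all 13626 probes, with Benjamini-Hochberg adjusted p under 0.05 called a change. Fold sizes depend on the starting values: in the authors' deposited log2 values 16 of the 74 member changes were smaller by over 1.5 times, and are given there too, and 5 were without background correction.

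Most members varied with stage. By the moderated F test over the 7 stages 37 of 48 member genes differed, against 66.7% of all genes tested, and 47 of 64 member probes did, against 65.7% of all probes. Of those 37, 14 had their highest mean in ANTRAL (37.8%, against 25.4% of all genes that differed), 6 in PMD3, 4 in PMD4, 5 in PRIMARY, 4 in PREANTRAL and 2 each in TLS and MLS. The lowest mean lay in ANTRAL for 10 of them and in PMD3 for 8, where all genes that differed had shares of 27.5% and 18.6%. The widest spans between stage means were those of Txndc2 (3.52 on the log2 scale), Gpx3 (3.40), Gsto2 (3.22) and Gstm6 (2.92). Gsta2 was detected on the 3 MLS arrays alone and so passed the detection filter through that stage.

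Whole ovaries of days 3 and 4 differed in 1 member gene, Gstm6, which fell by 1.41 on the log2 scale, 2.66-fold (SE 0.22, adjusted p = 0.00201). Of all genes 1.05% changed in this comparison, 0.705% up and 0.348% down, and of all probes 0.932%, against 2 of the 64 member probes, both of Gstm6 and 1 of which remained without PMD4 repeat 2. The median difference was 0.04 over the member genes and 0.01 over all genes. In the same step 2 of 13 granulosa markers (summed level 14850 to 19160, then 24090 to 25130), 2 of 4 erythroid markers (351.6 to 673.0, then 1032 to 1577) and 1 of 5 leukocyte markers rose, and their part in the change of Gstm6 was not tested.

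Isolated primary follicles against whole ovaries of day 4 gave 17 changed members of 48, of which 9 were higher and 8 lower. Txndc2 rose most and Gstk1, Gsto2 and Hmox1 fell most. Transferases, which are 17 of the 48 members, made up 12 of the 17 that changed, and probes of near copies among them may share transcripts. Of all genes 31.1% changed, 15.4% up and 15.7% down. Among probes 26 of the 64 members changed, against 30.0% of all, and 17 did without PMD4 repeat 2 or without PMD4 repeat 3. Median differences were -0.13 over members and 0.02 over all genes. In the same comparison all 8 detected endothelial markers fell (summed level 6758 to 7613 in PMD4, 1908 to 2499 in PRIMARY, with Cdh5 not detected), as did 5 of 5 leukocyte markers (1702 to 1791, then 130.1 to 160.7, with Lyz2, Cd52, Coro1a and C1qa not detected), 4 of 4 erythroid markers (1032 to 1577, then 53.97 to 66.68, with Alas2 and Slc4a1 not detected), 7 of 10 stromal and 5 of 8 surface epithelial markers, while 7 of 13 granulosa and 5 of 10 oocyte markers rose. Of the same lists 1 stromal and 1 surface epithelial marker rose and 1 oocyte marker fell, and of 8 theca markers 2 rose and 2 fell. The part of all these markers in the members' changes was not tested. In bulk samples fewer cells of a type and less RNA per cell cannot be told apart.

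In secondary follicles with a double layer of granulosa cells against primary follicles no member gene passed the threshold by its brightest probe with limma, and 14 had an unadjusted p under 0.05. Of all genes 6.65% changed, 3.70% up and 2.95% down. Among 64 member probes 2 rose, a second probe of Gpx8 and one of Txnl4a, against 5.98% of all probes. The medians were 0.11 for members and -0.02 for all genes. In the same step 6 of 10 stromal, 5 of 8 endothelial and 4 of 8 theca markers rose. So did 2 of 13 granulosa and 1 of 8 surface epithelial markers, and 1 of 10 oocyte markers fell. The probe count depends on the scaling and on single arrays: it was 5, all lower, with median scaling, and 0 to 8 when 1 array was left out, with 8 without TLS repeat 3 and 0 without any of the PRIMARY repeats.

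Between the secondary stages Gstm6 and Gsta4 fell and no member rose. Of all genes 2.94% changed, 1.65% up and 1.29% down, and 3 member probes of 64 changed, against 2.62% of all probes. Medians were -0.04 over members and 0.02 over all genes. In the same step 2 of 10 oocyte markers fell (summed level 75650 to 103500, then 57320 to 71280) and 2 of 8 endothelial (3768 to 5111, then 5887 to 8154), 1 of 10 stromal (12850 to 20080, then 22550 to 26780) and 1 of 4 erythroid markers (111.3 to 165.2, then 138.0 to 184.6) rose, and their part was not tested. When only the arrays of these stages entered the fit no member probe was called, and without TLS repeat 3 or MLS repeat 1 the count was 1. Gsta4 was not called in 16 of the 29 alternatives tried, among them those without TLS repeats 2 or 3 or any MLS repeat.

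Preantral against multilayered secondary follicles gave 8 changed members. Gpx3, Txnip and Gpx7 rose, and Txndc2, Gsto2, Gstm1, Gstm2 and Gstm6 fell. Of all genes 15.1% changed, 5.51% up and 9.61% down, and 11 of 64 member probes changed, against 14.3% of all probes. Medians were 0.06 over members and 0.01 over all genes. Oocyte markers fell in 9 of 10 cases (summed level 57320 to 71280 in MLS, 16250 to 24220 in PREANTRAL), 4 of 13 granulosa markers rose (58820 to 70640, then 95420 to 107200) and 4 of 10 stromal markers fell (22550 to 26780, then 12810 to 18780). Surface epithelial markers fell in 4 of 8 cases (6395 to 6703, then 2397 to 2760). Endothelial markers fell in 2 of 8 (5887 to 8154, then 3779 to 5407) and theca markers in 1 of 8. Erythroid markers rose in 2 of 4 cases (138.0 to 184.6, then 310.2 to 467.1). The part of all these markers in the members' changes was not tested.

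Antral follicles after gonadotropin differed from preantral follicles in 17 members, 9 higher and 8 lower. Txndc2, Gpx3, Gsto1 and Gss rose most, with Prdx2, Gpx1, Gstk1, Sod2 and Gstm4, and Txnip and Gpx7 fell most, with Gstt1, Gclm, Prdx4, Gclc, Gstm5 and Txndc5. Of all genes 27.4% changed, 12.8% up and 14.5% down, and 18 member probes of 64 changed, against 26.5% of all probes. Medians were 0.09 over members and -0.04 over all genes. In the same comparison 9 of 10 oocyte markers fell (to 5274 to 10570, with Ddx4 not detected), 4 of 8 theca markers rose (summed level 2530 to 4144 in PREANTRAL, where Star was not detected, and 10280 to 10910 in ANTRAL), as did 5 of 8 endothelial (3779 to 5407, then 7947 to 8707), 3 of 5 leukocyte (203.2 to 295.0, then 671.1 to 778.0; Lyz2 and Cd52 not detected in PREANTRAL) and 2 of 4 erythroid markers (310.2 to 467.1, then 413.7 to 597.3; Slc4a1 not detected in PREANTRAL). Granulosa markers fell in 2 of 13 cases (95420 to 107200, then 85680 to 108500). Stromal markers rose in 2 of 10 cases, and of 8 surface epithelial markers 1 rose and 3 fell. The part of all these markers in the members' changes was not tested.

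Over the whole span of isolated follicles, ANTRAL against PRIMARY, 29 of 48 members changed, 17 higher and 12 lower, and 37 of 64 probes. Of all genes 46.2% changed, 23.2% up and 23.0% down, and of all probes 45.8%. Medians were 0.10 over members and 0.02 over all genes. This comparison shares its arrays with the stepwise ones above. The 17 were the peroxidases Gpx1, Gpx3, Gpx4 and Gpx7, with Prdx2, Prdx3, Sod2, Sod3, Txn2, Gss, Hmox1, Gstk1, Gsto1, Gstm4, Gstp1, Txndc11 and Txndc15, and the 12 held 8 transferases (Gstm1, Gstm2, Gstm5, Gstm6, Gsta3, Gsto2, Gstt2 and Gstt3) with Gclc, Gclm, Txnip and Txnrd3. Oocyte markers fell in 10 of 10 cases, endothelial markers rose in 8 of 8 (1908 to 2499, then 7947 to 8707) and theca markers in 7 of 8 (595.9 to 1172, where Star and Insl3 were not detected, then 10280 to 10910). Granulosa markers rose in 7 of 13 cases and fell in 1. Stromal markers rose in 5 of 10 cases (6376 to 10060, then 19750 to 21380) and leukocyte in 4 of 5 (130.1 to 160.7, then 671.1 to 778.0). Erythroid markers rose in 4 of 4 cases (53.97 to 66.68, then 413.7 to 597.3). Surface epithelial markers rose in 3 of 8 cases and fell in 5 of 8. The part of all of these was not tested.

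**Figure D1:**
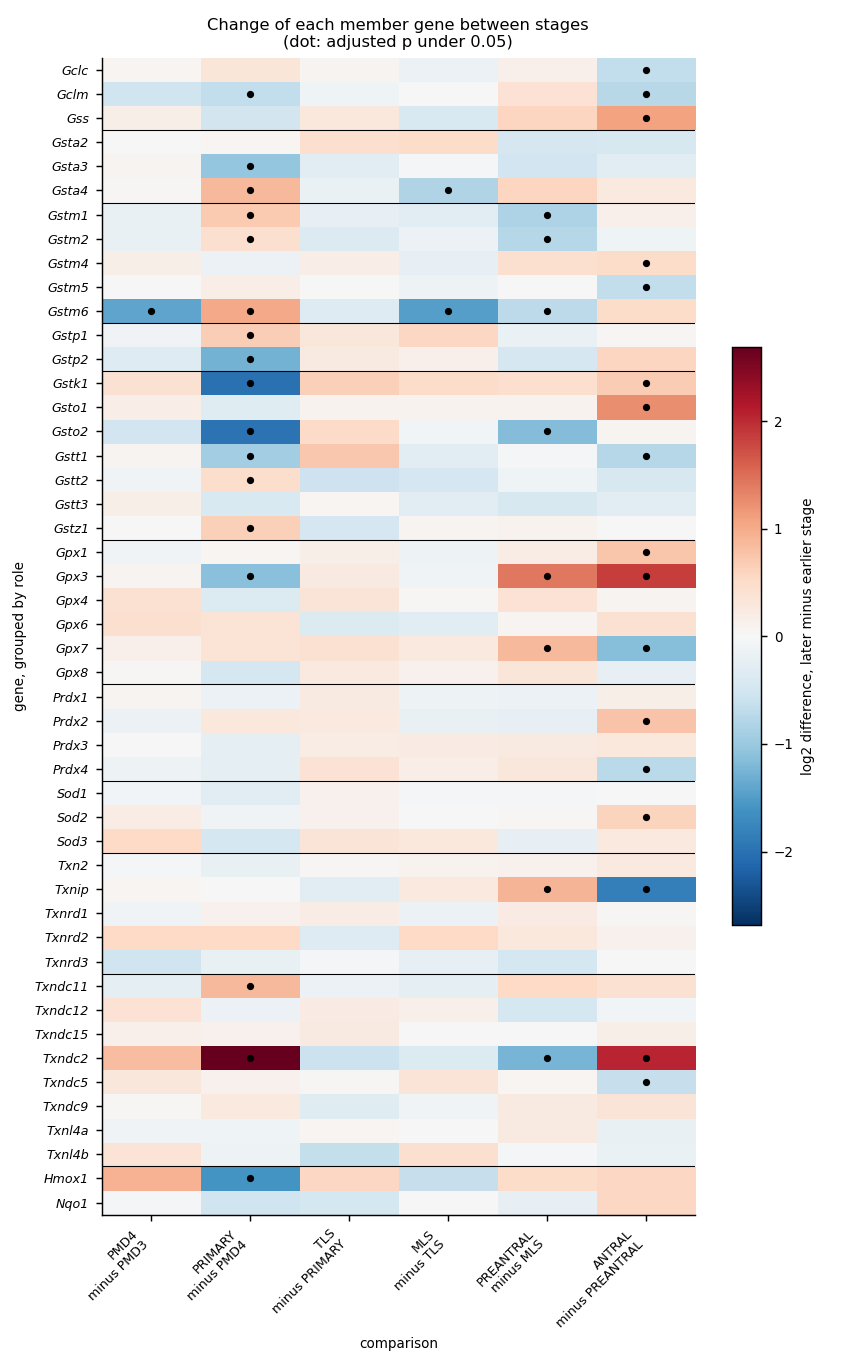
Log2 difference of each of the 48 member genes (rows, grouped by role) in the 6 comparisons of consecutive stages (columns), later minus earlier stage, in red where the later stage was higher and in blue where it was lower. Dots mark limma adjusted p under 0.05, and they gather in PRIMARY against PMD4, with 17, and in ANTRAL against PREANTRAL, also with 17.

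**Figure D2:**
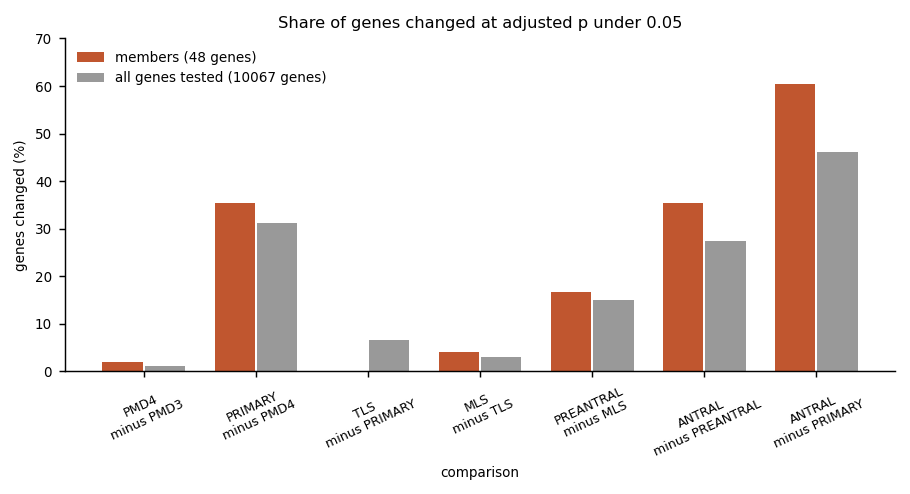
Percentage of genes with adjusted p under 0.05 in each comparison, for the 48 members (orange) and for all 10067 genes tested (grey), on an axis that starts at 0. In the order plotted the members' share was 2.08% beside 1.05% of all genes, 35.4% beside 31.1%, 0% beside 6.65%, 4.17% beside 2.94%, 16.7% beside 15.1%, 35.4% beside 27.4% and 60.4% beside 46.2%.

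The subunits of glutamate-cysteine ligase and the next enzyme of glutathione synthesis went opposite ways into the antral stage. Gclm, the modifier subunit, had mean levels of 10.31, 9.77, 9.11, 9.01, 9.02, 9.41 and 8.67 from PMD3 to ANTRAL in stage order, with a median within-stage SD of 0.14. It lay at 9.61, 9.69 and 10.02 in PMD4 and at 9.13, 9.15 and 9.06 in PRIMARY and fell by 0.66 on the log2 scale, 1.58-fold (SE 0.17, adjusted p = 0.00462), with all PRIMARY arrays under all PMD4 arrays. From 9.45, 9.50 and 9.27 in PREANTRAL it went to 8.66, 8.54 and 8.81 in ANTRAL and fell by 0.74 on the log2 scale, 1.67-fold (SE 0.17, adjusted p = 0.00219), again with no overlap; median scaling ended this call. Gclc, the catalytic subunit, was dim and was detected on 9 of 21 arrays, 3 of them TLS and none ANTRAL, with means of 4.85, 4.91, 5.22, 5.30, 5.15, 5.29 and 4.64 (median SD 0.21). Its fall into ANTRAL (adjusted p = 0.0235) is given without a fold, since no ANTRAL array and 2 of 3 PREANTRAL arrays detected it, and it was lost in 8 of 29 alternatives. Gss, glutathione synthetase, had means of 6.16, 6.31, 5.81, 6.10, 5.69, 6.27 and 7.34 (median SD 0.25). It read 6.51, 6.26 and 6.02 in PREANTRAL and 7.72, 6.82 and 7.47 in ANTRAL and rose by 1.07 on the log2 scale, 2.10-fold (SE 0.24, adjusted p = 0.00160, and 1.32-fold in the authors' values). A second Gss probe also rose (0.67 on the log2 scale, adjusted p = 0.0443), and the third did not pass (0.12, adjusted p = 0.776). Against PRIMARY, Gss rose by 1.53 on the log2 scale, 2.88-fold (SE 0.24, adjusted p = 1.55e-05, and 1.41-fold in the authors' values) and Gclm fell by 0.45 (adjusted p = 0.0346), the latter lost without any of the PRIMARY repeats, ANTRAL 1 or ANTRAL a.

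The Gclm promoter is shown because it holds a match to the core of the antioxidant response element, searched as TGACNNNGC on both strands within 250 bases before the start of transcription. The core stood in 9 of the 42 member genes with a promoter in the RefSeq table (build GRCm38.p6), namely Gclm, Gsta3, Gstm5, Prdx1, Sod1, Txndc11, Txndc2, Txndc5 and Txnrd1, which is 21.4%, against 11.5% of 27025 genes. Those 9 include genes that rose, fell and did not pass the F test. Genes can have several promoter entries, and counted per entry the core stood in 15.5% of 58 for members, against 10.2% of 32851. No promoter entry was found for Gclc, Gsta4, Gstt2, Hmox1, Sod3 and Txnl4a. The window is chr3:122245307-122245556 on the plus strand, printed 5′ to 3′ with the match, which lies on the other strand 134 bases before the start, in capitals.
Gclm: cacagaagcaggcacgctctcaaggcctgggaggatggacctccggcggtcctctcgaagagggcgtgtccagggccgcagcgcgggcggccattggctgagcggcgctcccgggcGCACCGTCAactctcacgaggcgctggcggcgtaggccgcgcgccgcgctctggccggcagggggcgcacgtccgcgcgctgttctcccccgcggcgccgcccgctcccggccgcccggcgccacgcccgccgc

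Of 17 glutathione transferases detected, 16 are described with their mean level in every stage because they passed the F test at adjusted p under 0.05; Gstz1 missed it (0.0574).

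The mu class transferases, cytosolic enzymes that conjugate glutathione to electrophiles, were lower in preantral than in multilayered secondary follicles in 3 of 5 cases, where 9.61% of all genes were lower, and higher in none. From PRIMARY to ANTRAL 4 of 5 were lower, where 23.0% of all genes were, and Gstm4 was higher. Gstm2 had means of 14.16, 13.95, 14.39, 14.02, 13.86, 13.09 and 12.97 from PMD3 to ANTRAL (median SD 0.06), peaking in PRIMARY. Its MLS arrays read 13.86, 13.74 and 13.98 and its PREANTRAL arrays 13.08, 13.06 and 13.13, every one of the latter under every one of the former. It fell by 0.77 on the log2 scale, 1.71-fold (SE 0.16, adjusted p = 0.00172), and all 3 Gstm2 probes fell. Gstm1 had means of 11.37, 11.18, 11.89, 11.67, 11.39, 10.55 and 10.68 (median SD 0.15). It read 11.53, 11.14 and 11.49 in MLS and 10.49, 10.72 and 10.44 in PREANTRAL and fell by 0.84 on the log2 scale, 1.78-fold (SE 0.18, adjusted p = 0.00268). A second, dim Gstm1 probe, detected on 8 arrays, did not follow, with a log2 difference of 0.19 and adjusted p = 0.660. Between PREANTRAL and ANTRAL neither passed (log2 difference 0.13, adjusted p = 0.669 for Gstm1, log2 difference -0.12, adjusted p = 0.648 for Gstm2). From PMD4 to PRIMARY, Gstm1 rose by 0.71 (adjusted p = 0.00446) and Gstm2 rose by 0.44 (adjusted p = 0.0413), the latter call lost without any one of the PMD4 or PRIMARY arrays and with median scaling.

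Gstm6 moved in more comparisons than any other member, 4 of the 6 consecutive ones. Means were 9.72, 8.31, 9.33, 8.98, 7.51, 6.80 and 7.30 (median SD 0.23). PMD3 arrays stood at 9.81, 9.66 and 9.69, PMD4 arrays at 8.45, 8.04 and 8.43 and PRIMARY arrays at 9.04, 9.46 and 9.48, a dip at day 4 in which no PMD4 array overlapped the stages beside it. After the day 4 fall it rose by 1.02 on the log2 scale, 2.03-fold (SE 0.22, adjusted p = 0.00135) into PRIMARY. TLS arrays spread from 8.48 to 9.56, MLS arrays read 7.22, 7.37 and 7.94 and PREANTRAL arrays 6.89, 6.84 and 6.68. The gene fell by 1.47 on the log2 scale, 2.77-fold (SE 0.22, adjusted p = 0.000932, and 1.79-fold in the authors' values) between the secondary stages and fell by 0.71 (adjusted p = 0.0369) into PREANTRAL. The first of these was lost when only TLS and MLS entered the fit, and the second without MLS repeat 3 or any PREANTRAL repeat. The second Gstm6 probe moved the same way in each, and passed in all but the last. From PRIMARY to ANTRAL, Gstm6 fell by 2.03 on the log2 scale, 4.07-fold, and 2.23-fold in the authors' values.

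Gstm4 and Gstm5 went other ways. Gstm4 had means of 6.23, 6.40, 6.24, 6.42, 6.21, 6.63 and 7.12 (median SD 0.17), read 6.78, 6.70 and 6.41 in PREANTRAL and 7.32, 6.79 and 7.25 in ANTRAL, and rose by 0.49 on the log2 scale, 1.40-fold (SE 0.17, adjusted p = 0.0360), lost without PREANTRAL repeats 2 or 3, ANTRAL 1 or ANTRAL b. Gstm5 passed in no step before ANTRAL, with means of 10.42, 10.43, 10.60, 10.62, 10.49, 10.51 and 9.85 (median SD 0.18), and its ANTRAL arrays at 9.96, 9.83 and 9.77 lay under its PREANTRAL arrays at 10.28, 10.58 and 10.67. It fell by 0.66 on the log2 scale, 1.58-fold (SE 0.17, adjusted p = 0.00626), a call that median scaling ended. Probes of near-identical copies can share transcripts, which would make both single mu genes and the counts of the class less certain. Sharing was not tested.

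The 7 protein-coding mu genes of the RefSeq table lie side by side on chromosome 3 in the order Gstm5, Gstm7, Gstm6, Gstm3, Gstm2, Gstm1, Gstm4. No other protein-coding gene lies between them, and other kinds of gene were not looked at. The start regions of Gstm1, Gstm2 and Gstm6, the 3 that fell from MLS to PREANTRAL, are shown for comparison (GRCm38.p6, minus strand, the most upstream start where there are several), at chr3:108017974-108018223, chr3:107986421-107986670 and chr3:107953467-107953716. None of the 3 windows holds TGACNNNGC, which says only that these letters are not in these 250 bases, so no capitals are printed.
Gstm1: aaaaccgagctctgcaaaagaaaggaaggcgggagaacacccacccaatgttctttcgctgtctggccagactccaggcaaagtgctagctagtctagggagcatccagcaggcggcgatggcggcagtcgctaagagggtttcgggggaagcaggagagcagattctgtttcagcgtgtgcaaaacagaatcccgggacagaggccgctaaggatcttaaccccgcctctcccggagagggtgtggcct
Gstm2: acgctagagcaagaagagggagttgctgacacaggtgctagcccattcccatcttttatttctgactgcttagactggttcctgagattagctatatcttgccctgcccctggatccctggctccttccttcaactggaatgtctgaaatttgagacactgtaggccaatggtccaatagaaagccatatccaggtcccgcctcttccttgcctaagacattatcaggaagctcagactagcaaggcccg
Gstm6: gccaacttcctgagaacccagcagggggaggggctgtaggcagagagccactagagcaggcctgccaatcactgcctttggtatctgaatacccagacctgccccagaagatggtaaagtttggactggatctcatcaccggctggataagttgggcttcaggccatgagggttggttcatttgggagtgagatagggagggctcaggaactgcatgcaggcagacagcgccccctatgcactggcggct

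**Figure D3:**
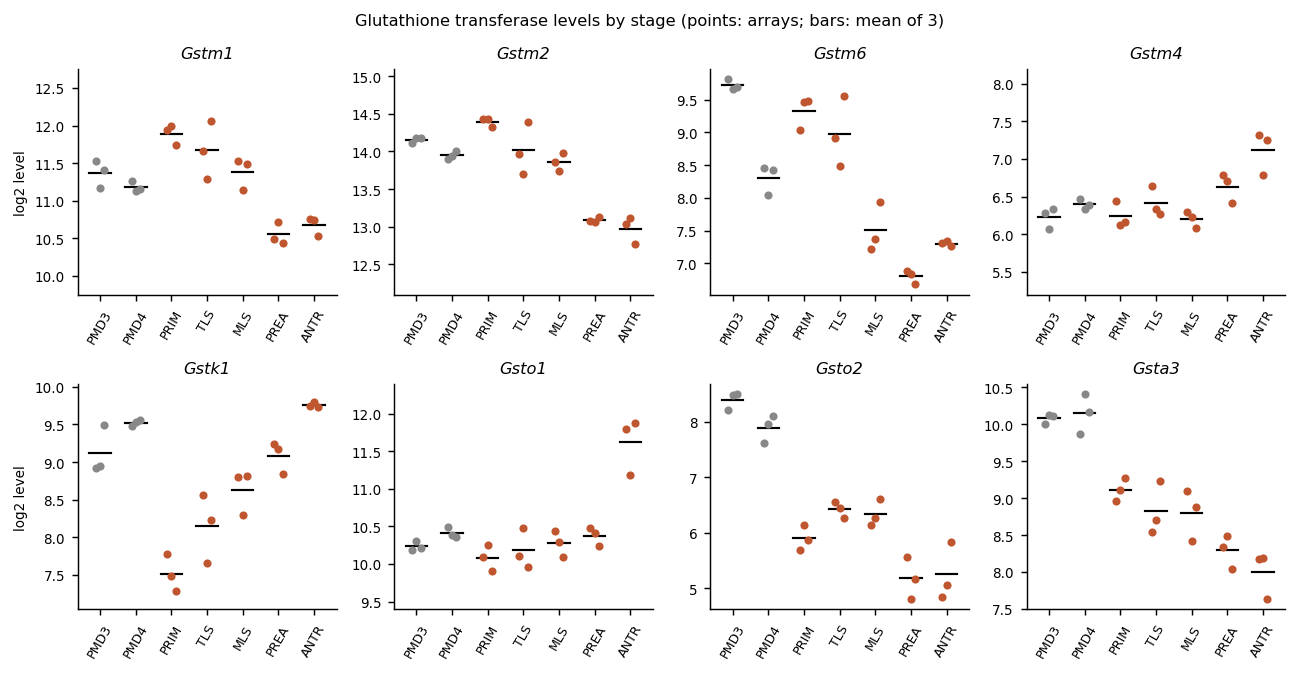
Log2 levels of 8 glutathione transferases on every array by stage, with whole ovaries in grey, isolated follicles in orange and a bar at the mean of 3 arrays; each panel has its own axis, which does not start at 0. Gstm1, Gstm2 and Gstm6 step down between MLS and PREANTRAL, Gstk1 climbs from 7.51 in PRIMARY to 9.76 in ANTRAL, and Gsto1 stands apart in ANTRAL.

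Alpha class transferases were split. Gsta3 declined with follicle growth, with means of 10.08, 10.15, 9.11, 8.83, 8.80, 8.29 and 8.00 (median SD 0.27). It read 9.87, 10.41 and 10.17 in PMD4 and 8.95, 9.11 and 9.27 in PRIMARY and fell by 1.04 on the log2 scale, 2.05-fold (SE 0.22, adjusted p = 0.000819). Against PRIMARY, the ANTRAL arrays at 8.17, 8.18 and 7.63 were lower, and the gene fell by 1.11 on the log2 scale, 2.17-fold (SE 0.22, adjusted p = 0.000208). Gsta4, which clears the lipid peroxidation product hydroxynonenal, had means of 9.93, 9.97, 10.84, 10.66, 9.84, 10.43 and 10.69 (median SD 0.17). Its PRIMARY arrays at 10.63, 10.82 and 11.07 exceeded the PMD4 arrays at 10.02, 9.83 and 10.06, and it rose by 0.87 on the log2 scale, 1.83-fold (SE 0.21, adjusted p = 0.00328). From TLS, at 10.53, 10.86 and 10.60, to MLS, at 9.79, 9.73 and 10.01, it fell by 0.82 on the log2 scale, 1.76-fold (SE 0.21, adjusted p = 0.0406), with the weak hold given above. Gsta2 was at or near background, with means of 4.52, 4.50, 4.56, 5.01, 5.50, 5.04 and 4.61, and none of its comparisons passed.

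Pi class transferases went opposite ways between whole ovaries and primary follicles. Gstp1 had means of 10.11, 10.01, 10.66, 10.95, 11.51, 11.34 and 11.36 (median SD 0.20) and Gstp2 of 7.86, 7.50, 6.22, 6.46, 6.58, 6.13 and 6.70 (median SD 0.56). Gstp1 rose by 0.65 on the log2 scale, 1.57-fold (SE 0.20, adjusted p = 0.0184) from 10.24, 9.72 and 10.06 in PMD4 to 10.76, 10.65 and 10.56 in PRIMARY, a call lost without PMD4 repeat 2 or PRIMARY repeat 1. Gstp2 fell by 1.28 on the log2 scale, 2.42-fold (SE 0.35, adjusted p = 0.00756, and 1.36-fold in the authors' values) from 7.25, 7.52 and 7.73 to 5.54, 6.39 and 6.73, lost without PRIMARY repeat 1. From PRIMARY to ANTRAL, Gstp1 rose by 0.71 (adjusted p = 0.00698). The genes are near copies, so their probes may share transcripts.

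Gstk1 and Gsto2, of the kappa and omega classes, fell most of all members between whole ovaries and primary follicles. Gstk1, a transferase of mitochondria and peroxisomes, had means of 9.12, 9.52, 7.51, 8.15, 8.63, 9.09 and 9.76 (median SD 0.25). Its PMD4 arrays read 9.48, 9.53 and 9.57 and its PRIMARY arrays 7.77, 7.48 and 7.28, and it fell by 2.01 on the log2 scale, 4.03-fold (SE 0.22, adjusted p = 2.63e-07, and 2.35-fold in the authors' values). It was higher in each later follicle stage than in the one before, and reached 9.75, 9.80 and 9.73 in ANTRAL. Of these steps only the last passed, where it rose by 0.67 (adjusted p = 0.0249), lost without PREANTRAL repeat 3 or any ANTRAL array, whereas over the span from PRIMARY to ANTRAL it rose by 2.24 on the log2 scale, 4.74-fold (SE 0.22, adjusted p = 2.15e-08, and 2.64-fold in the authors' values), a call kept in every alternative tried.

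The omega class enzymes reduce dehydroascorbate and protein thiols. Gsto1 passed in no step before the last, with means of 10.23, 10.41, 10.09, 10.18, 10.27, 10.38 and 11.62 (median SD 0.17). Its PREANTRAL arrays read 10.48, 10.41 and 10.24 and its ANTRAL arrays 11.80, 11.18 and 11.88, and it rose by 1.24 on the log2 scale, 2.36-fold (SE 0.18, adjusted p = 2.35e-05). Gsto2 was highest in whole ovaries, with means of 8.40, 7.89, 5.91, 6.42, 6.34, 5.18 and 5.25 (median SD 0.24). It read 7.62, 7.96 and 8.11 in PMD4 and 5.70, 6.14 and 5.88 in PRIMARY and fell by 1.99 on the log2 scale, 3.97-fold (SE 0.23, adjusted p = 8.48e-07, and 1.65-fold in the authors' values). Into PREANTRAL it fell by 1.16 (adjusted p = 0.00134, and 1.18-fold in the authors' values), with 1 PREANTRAL array of 3 detecting it and a second probe that did not pass.

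The theta class genes did not all change in the same comparisons. Gstt1 had means of 8.15, 8.21, 7.27, 7.99, 7.70, 7.64 and 6.87 (median SD 0.24), fell by 0.94 on the log2 scale, 1.92-fold (SE 0.22, adjusted p = 0.00244) into PRIMARY and fell by 0.77 (adjusted p = 0.0130) into ANTRAL, the latter lost without PREANTRAL repeat 3 or ANTRAL a. Gstt2 had means of 8.39, 8.30, 8.78, 8.22, 7.78, 7.65 and 7.22 (median SD 0.16). It rose by 0.48 (adjusted p = 0.0453) into PRIMARY, lost in 12 of 29 alternatives, among them each PMD4 and each PRIMARY array left out, and over the span to ANTRAL fell by 1.56 on the log2 scale, 2.96-fold (SE 0.18, adjusted p = 2.48e-07, and 1.75-fold in the authors' values), kept in every alternative tried. Gstt3 had means of 8.15, 8.32, 7.91, 7.97, 7.67, 7.23 and 6.94 (median SD 0.29), spread widely among the PMD3 and TLS arrays, and fell by 0.97 on the log2 scale, 1.96-fold (SE 0.31, adjusted p = 0.0124) from PRIMARY to ANTRAL, lost without PRIMARY repeat 1 or ANTRAL b. Gstz1, maleylacetoacetate isomerase of tyrosine breakdown, rose into PRIMARY by 0.63 (adjusted p = 0.0134).

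Of 6 glutathione peroxidases 2 rose and 1 fell from PREANTRAL to ANTRAL, where 12.8% of all genes rose and 14.5% fell, and 4 rose and 0 fell from PRIMARY to ANTRAL, where 23.2% rose and 23.0% fell. Gpx3, the secreted peroxidase of plasma, had the largest difference between PRIMARY and ANTRAL of any member. Means were 8.81, 8.88, 7.75, 7.98, 7.88, 9.30 and 11.15 (median SD 0.21). PMD4 arrays read 9.12, 8.73 and 8.79, PRIMARY 7.55, 7.70 and 8.00, MLS 7.99, 7.44 and 8.23, PREANTRAL 9.34, 9.35 and 9.21 and ANTRAL 11.15, 11.13 and 11.17. Every PREANTRAL array lay above every MLS array, and every ANTRAL array above every PREANTRAL array. Gpx3 fell by 1.13 on the log2 scale, 2.19-fold (SE 0.19, adjusted p = 0.000101) into PRIMARY, then rose by 1.41 on the log2 scale, 2.66-fold (SE 0.19, adjusted p = 2.25e-05) into PREANTRAL and rose by 1.86 on the log2 scale, 3.62-fold (SE 0.19, adjusted p = 2.22e-07) into ANTRAL. Over the span from PRIMARY to ANTRAL it rose by 3.40 on the log2 scale, 10.6-fold (SE 0.19, adjusted p = 4.98e-12, and 5.89-fold in the authors' values), and all of these calls were kept in every alternative tried, though not the size of the last.

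Gpx7, a peroxidase of the endoplasmic reticulum, climbed to PREANTRAL and then dropped. Its means were 10.40, 10.54, 10.91, 11.31, 11.57, 12.44 and 11.29 (median SD 0.14). It read 11.63, 11.53 and 11.56 in MLS, 12.35, 12.38 and 12.60 in PREANTRAL and 11.27, 11.36 and 11.25 in ANTRAL, with PREANTRAL above both neighbours on every array. It rose by 0.87 on the log2 scale, 1.83-fold (SE 0.15, adjusted p = 0.000416) and then fell by 1.15 on the log2 scale, 2.21-fold (SE 0.15, adjusted p = 8.12e-06). Its difference from PRIMARY to ANTRAL (0.39, adjusted p = 0.0453) was lost in 14 of 29 alternatives, any PRIMARY or ANTRAL array left out among them. Gpx1, the cytosolic peroxidase, passed in no step before ANTRAL, with means of 12.77, 12.67, 12.73, 12.89, 12.75, 12.95 and 13.69 (median SD 0.14). From 12.97, 12.98 and 12.89 in PREANTRAL to 13.81, 13.42 and 13.85 in ANTRAL it rose by 0.75 on the log2 scale, 1.68-fold (SE 0.16, adjusted p = 0.000991). Gpx4, which reduces lipid hydroperoxides in membranes, had means of 10.39, 10.79, 10.43, 10.78, 10.81, 11.20 and 11.27 (median SD 0.10). None of its steps passed, but from 10.47, 10.39 and 10.44 in PRIMARY to 11.35, 11.20 and 11.26 in ANTRAL it rose by 0.84 on the log2 scale, 1.79-fold (SE 0.16, adjusted p = 0.000240). Gpx6, detected on 8 arrays, and Gpx8 did not pass the F test (adjusted p = 0.0534 and 0.0943).

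Peroxiredoxins reduce peroxides with electrons from thioredoxin. Of 4 detected, 1 rose and 1 fell from PREANTRAL to ANTRAL, where 12.8% of all genes rose and 14.5% fell. Prdx2 of the cytosol had means of 13.33, 13.16, 13.44, 13.70, 13.50, 13.28 and 14.05 (median SD 0.09), read 13.29, 13.16 and 13.40 in PREANTRAL and 14.06, 13.94 and 14.15 in ANTRAL and rose by 0.77 on the log2 scale, 1.70-fold (SE 0.15, adjusted p = 0.000449). Prdx4 of the endoplasmic reticulum had means of 12.78, 12.64, 12.38, 12.78, 12.96, 13.27 and 12.54 (median SD 0.12), read 13.37, 13.14 and 13.31 and 12.45, 12.73 and 12.43 and fell by 0.73 on the log2 scale, 1.66-fold (SE 0.18, adjusted p = 0.00357), lost with median scaling. No ANTRAL array overlapped a PREANTRAL array in either gene. Prdx3 of mitochondria had means of 10.22, 10.21, 9.98, 10.19, 10.40, 10.64 and 10.92 (median SD 0.19), no step of which passed, and from PRIMARY to ANTRAL it rose by 0.94 on the log2 scale, 1.92-fold (SE 0.21, adjusted p = 0.00104). Prdx1, with means of 13.71, 13.78, 13.63, 13.86, 13.72, 13.57 and 13.72 (median SD 0.14), did not pass the F test (adjusted p = 0.531), with stage means within 0.30 of each other.

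Of the superoxide dismutases the mitochondrial Sod2 rose in ANTRAL, and the cytosolic Sod1 did not pass. Sod2 had means of 11.68, 11.89, 11.81, 11.92, 11.91, 11.93 and 12.53 (median SD 0.07). From 12.05, 11.89 and 11.85 in PREANTRAL to 12.58, 12.54 and 12.46 in ANTRAL it rose by 0.60 on the log2 scale, 1.52-fold (SE 0.13, adjusted p = 0.00138), with every ANTRAL array above all 18 others. Sod1 had means of 13.10, 13.03, 12.73, 12.85, 12.80, 12.76 and 12.77 (median SD 0.09, F test adjusted p = 0.113), within 0.37 of each other. Sod3, the extracellular enzyme, was dim, with means of 5.33, 5.86, 5.39, 5.73, 6.01, 5.79 and 6.05 (median SD 0.25). From PRIMARY, at 5.21, 5.79 and 5.17, to ANTRAL, at 6.46, 5.78 and 5.90, it rose by 0.66 (adjusted p = 0.0240), although the arrays overlap and the call is lost without PRIMARY repeats 1 or 3 or ANTRAL 1, and in the authors' values or under median scaling.

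**Figure D4:**
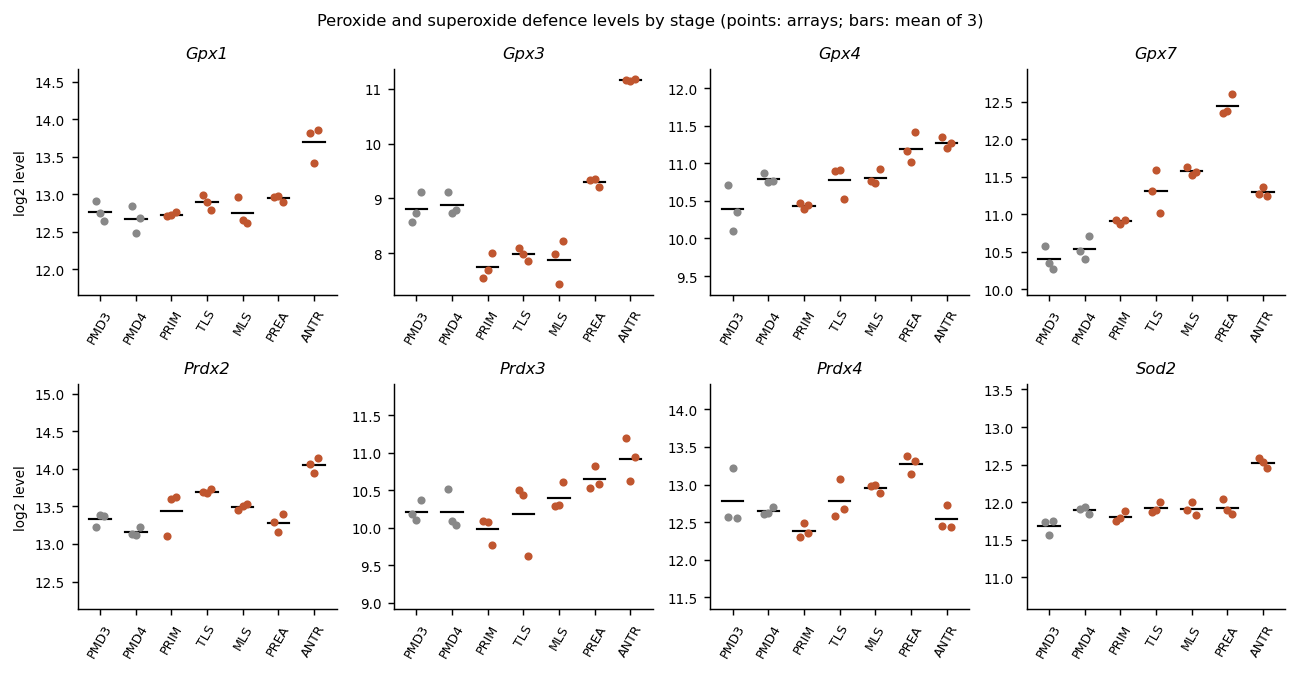
Log2 levels of 8 peroxidase, peroxiredoxin and superoxide dismutase genes on every array by stage, with whole ovaries in grey, isolated follicles in orange and a bar at the mean of 3 arrays; each panel has its own axis, which does not start at 0. Gpx3 rises from 7.88 in MLS through 9.30 to 11.15 in ANTRAL, Gpx7 and Prdx4 peak in PREANTRAL, and Gpx1, Prdx2 and Sod2 stand highest in ANTRAL.

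In the thioredoxin system, where a reductase passes electrons from NADPH to thioredoxin, the inhibitor moved most. Txnip binds reduced thioredoxin and also restrains glucose uptake. Its means were 11.63, 11.69, 11.67, 11.36, 11.62, 12.53 and 10.70 (median SD 0.24). MLS arrays read 11.58, 11.21 and 12.06, PREANTRAL arrays 12.54, 12.52 and 12.52 and ANTRAL arrays 10.88, 10.90 and 10.31, so that PREANTRAL held the highest and ANTRAL the lowest values of the series. It rose by 0.91 on the log2 scale, 1.88-fold (SE 0.21, adjusted p = 0.00518) and then fell by 1.83 on the log2 scale, 3.56-fold (SE 0.21, adjusted p = 1.26e-06), both kept in every alternative tried. Its promoter is shown because it holds a match to the paired carbohydrate response element, a motif through which glucose is known to drive genes. The pair, searched on both strands as CACGNG, any 5 bases and CACGNG again, stood in 14 of 27025 genes (0.0518%) and among the 42 members in Txnip alone. It lies 85 bases before the start, in capitals, in the window chr3:96557707-96557956 (GRCm38.p6, plus strand), printed 5′ to 3′.
Txnip: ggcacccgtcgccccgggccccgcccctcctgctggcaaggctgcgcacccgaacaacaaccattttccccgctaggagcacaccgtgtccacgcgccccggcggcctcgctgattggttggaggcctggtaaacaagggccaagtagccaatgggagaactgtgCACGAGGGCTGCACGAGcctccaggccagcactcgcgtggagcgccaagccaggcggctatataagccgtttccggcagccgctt

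Thioredoxin reductases took separate courses. Txnrd3, best known from testis, had means of 8.57, 8.03, 7.83, 7.79, 7.57, 7.11 and 7.09 (median SD 0.15). From 7.71, 7.99 and 7.78 in PRIMARY to 7.37, 6.68 and 7.20 in ANTRAL it fell by 0.74 on the log2 scale, 1.67-fold (SE 0.18, adjusted p = 0.00150). Txnrd2 of mitochondria passed the F test (adjusted p = 0.000272) with means of 7.72, 8.26, 8.79, 8.44, 8.98, 9.26 and 9.37 (median SD 0.17), but no single comparison passed by its brightest probe. From PRIMARY to ANTRAL its second probe rose by 0.69 and passed, where the brightest rose by 0.59 and did not. Txnrd1, the cytosolic reductase, was detected on 7 arrays, with means of 4.92, 4.83, 4.95, 5.15, 5.00, 5.22 and 5.26 (median SD 0.35), and did not pass (F test adjusted p = 0.715). Txn2, mitochondrial thioredoxin, had means of 8.15, 8.13, 7.92, 7.95, 8.05, 8.17 and 8.42 (median SD 0.11) and missed the F test (adjusted p = 0.183), and from PRIMARY to ANTRAL it rose by 0.51 (adjusted p = 0.0236), lost without PRIMARY repeats 1 or 2, ANTRAL 1 or ANTRAL b.

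Txndc2, a thioredoxin known from sperm, changed most among the 8 thioredoxin-domain members. Its means were 5.86, 6.69, 9.38, 8.80, 8.42, 7.18 and 9.23 (median SD 0.21). PMD4 arrays read 6.69, 6.69 and 6.70 and PRIMARY arrays 9.26, 9.44 and 9.44, MLS arrays 8.12, 8.48 and 8.67, PREANTRAL arrays 7.34, 7.18 and 7.03 and ANTRAL arrays 9.26, 9.01 and 9.43. No array of one stage overlapped the other in any of the 3 changes. It rose by 2.69 on the log2 scale, 6.44-fold (SE 0.22, adjusted p = 5.09e-09, and 2.70-fold in the authors' values), then fell by 1.24 on the log2 scale, 2.37-fold (SE 0.22, adjusted p = 0.000367, and 1.56-fold in the authors' values) and rose by 2.05 on the log2 scale, 4.14-fold (SE 0.22, adjusted p = 3.35e-07, and 2.24-fold in the authors' values), all kept in every alternative tried. The marker shifts given above for these comparisons, those of the oocyte among them, stand beside these changes, and their part in them was not tested. Its level in ANTRAL did not differ from that in PRIMARY beyond the error (log2 difference -0.15, adjusted p = 0.613, 95% interval -0.60 to 0.30).

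Of the other thioredoxin-domain members, Txndc11 of the endoplasmic reticulum rose by 0.87 on the log2 scale, 1.82-fold (SE 0.21, adjusted p = 0.00268, and 1.16-fold in the authors' values) into PRIMARY, as did both of its further probes, whereas its rise from PRIMARY to ANTRAL (0.53, adjusted p = 0.0397) was not shared by them. Txndc5, a disulphide isomerase, fell by 0.61 (adjusted p = 0.0338) into ANTRAL, lost without any PREANTRAL or ANTRAL array. Txndc15 rose by 0.36 (adjusted p = 0.0412) from PRIMARY to ANTRAL, lost in 9 of 29 alternatives, each PRIMARY repeat among them. Txndc9, Txndc12, Txnl4a and Txnl4b did not pass the F test by their brightest probes, and the 4 probes of Txnl4a, a splicing factor, disagreed: from PMD4 to PRIMARY 1 of them rose by 0.42 (adjusted p = 0.0358) and the other 3 did not pass.

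**Figure D5:**
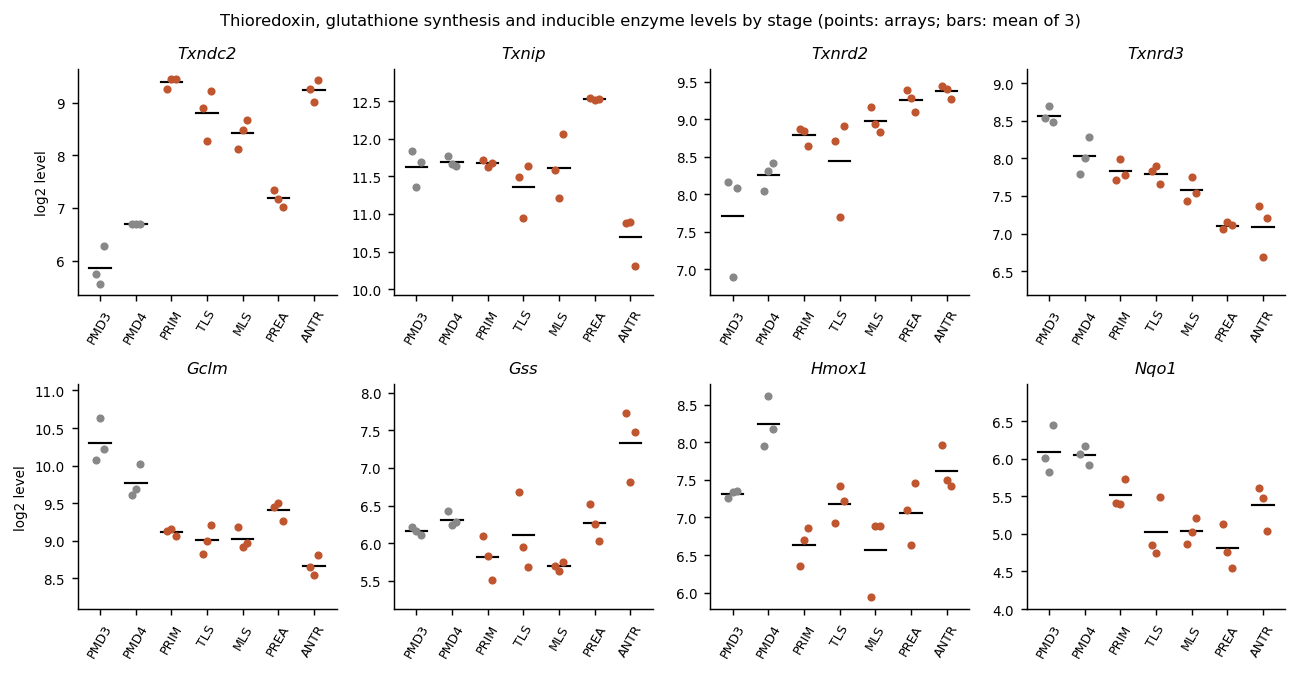
Log2 levels of 8 genes of the thioredoxin system, glutathione synthesis and the inducible enzymes on every array by stage, with whole ovaries in grey, isolated follicles in orange and a bar at the mean of 3 arrays; each panel has its own axis, which does not start at 0. Txndc2 goes from 6.69 in PMD4 to 9.38 in PRIMARY, falls to 7.18 in PREANTRAL and returns to 9.23 in ANTRAL, and Txnip moves from 12.53 in PREANTRAL to 10.70 in ANTRAL.

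The inducible enzymes Hmox1 and Nqo1, both known NRF2 targets, had their highest means in PMD4 and PMD3 respectively. Hmox1, which breaks down haem, had means of 7.31, 8.24, 6.63, 7.18, 6.57, 7.07 and 7.62 (median SD 0.29). Its PMD4 arrays at 7.95, 8.61 and 8.18 lay above its PRIMARY arrays at 6.35, 6.70 and 6.85. Hmox1 fell by 1.61 on the log2 scale, 3.06-fold (SE 0.26, adjusted p = 4.34e-05, and 1.64-fold in the authors' values). In this comparison the median log2 difference of erythroid markers was -3.00, of stromal -2.19, of leukocyte -1.87, of surface epithelial -1.70 and of endothelial -1.35. That of granulosa markers was 0.68, of oocyte 0.44 and of theca 0.03. The part of all these markers was not tested. From PRIMARY to ANTRAL, at 7.96, 7.50 and 7.41, Hmox1 rose by 0.99 on the log2 scale, 1.99-fold (SE 0.26, adjusted p = 0.00297). Nqo1, a quinone reductase detected on 14 arrays, had means of 6.09, 6.05, 5.51, 5.03, 5.03, 4.81 and 5.38 (median SD 0.30) and passed the F test (adjusted p = 6.58e-05) but none of the comparisons.

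Genes around the members were read from 11 lists of glutathione, cysteine, NADPH, selenium and metal handling, of which 77 genes outside the members were detected. Consecutive comparisons gave 0 higher and 1 lower (PMD4 against PMD3), 8 and 21 (PRIMARY), 4 and 0 (TLS), 1 and 3 (MLS), 5 and 7 (PREANTRAL) and 21 and 14 (ANTRAL), and ANTRAL against PRIMARY gave 28 and 11. In that order 1.3%, 37.7%, 5.19%, 5.19%, 15.6%, 45.5% and 50.6% of these genes changed, beside 1.05%, 31.1%, 6.65%, 2.94%, 15.1%, 27.4% and 46.2% of all genes. In the authors' values 50 of their 124 changes were smaller by over 1.5 times, as 28 were without background correction. At day 4 Me2, a mitochondrial malic enzyme, was 2.14-fold lower, a call lost with median scaling and when only PMD3 and PMD4 were fitted.

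In PRIMARY against PMD4, 4 of the 7 detected genes of cysteine and amino acid supply (10 listed) rose and 2 fell. Of all genes 15.4% rose and 15.7% fell. The 4 include Cdo1, which uses up cysteine. Cbs, cystathionine beta-synthase, was at least 4.22-fold higher, since no PMD4 array detected it, and Cdo1, cysteine dioxygenase, Ltc4s, leukotriene C4 synthase, and Tfrc, the transferrin receptor, were 2.76-, 2.45- and 2.34-fold higher. Ggt5, a gamma-glutamyl transferase, was at least 2.29-fold lower, and Selenop, Slc1a4 and Selenow were 2.88-, 2.65- and 2.44-fold lower. These bounds take, for the undetected stage, the higher of the dimmest detected level of each array and the probe's own, and hold for the background correction used. In the authors' values the folds were 1.50 for Cbs, 1.50 for Ltc4s, 1.26 for Ggt5, 1.76 for Selenop and 1.34 for Slc1a4. The call of Selenow was lost in 18 of 29 alternatives, among them those without any PMD4 or PRIMARY repeat. In TLS against PRIMARY, Ephx1, microsomal epoxide hydrolase, Sephs1, Blvrb and Cyba were 2.29-, 1.77-, 1.56- and 1.55-fold higher. In MLS against TLS, Ephx1 was 2.33-fold higher, and Cdo1, Chac1 (which degrades glutathione) and Nox4 (detected on 2 of 3 MLS arrays) were 3.02-, 2.43- and 2.18-fold lower. In the authors' values the fold was 1.47 for Ephx1 in TLS, and in MLS 1.39 for Chac1 and 1.17 for Nox4. The calls from TLS to MLS, and those of Ephx1, Sephs1, Blvrb and Cyba from PRIMARY to TLS, were lost when only the stages compared entered the fit. Single arrays also ended those of Blvrb (PRIMARY repeat 1 or TLS repeat 2), Cyba (any PRIMARY repeat or TLS repeat 1), Ephx1 in MLS (MLS repeat 1) and Nox4 (MLS repeats 1 or 3). The call of Blvrb was lost with median scaling too.

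Slc7a11, the cystine transporter, fell most at the preantral stage and was 4.86-fold lower in PREANTRAL than in MLS (adjusted p = 6.62e-06), and Ltc4s, Ggct, which takes apart gamma-glutamyl peptides, and Chac1 were 3.42-, 2.52- and 1.76-fold lower. Mgst2, a microsomal glutathione transferase, Cbs, Ptges and Me2 were 3.91-, 3.89-, 1.62- and 1.51-fold higher. In PREANTRAL 2 of 3 arrays detected Slc7a11, 2 of 3 Chac1 and 1 of 3 Ltc4s, and in the authors' values the folds were 1.75 for Slc7a11, 1.41 for Ltc4s, 1.12 for Chac1, 1.46 for Mgst2 and 2.09 for Cbs. The call of Chac1 was lost without background correction, with median scaling and in the authors' values. It was also lost without MLS repeats 2 or 3 or PREANTRAL repeats 2 or 3. The call of Ptges was lost without PREANTRAL repeat 3, and that of Me2 without MLS repeats 1 or 2 or PREANTRAL repeats 1 or 3.

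In ANTRAL the largest rises among these genes were those of Mgst2, 13.7-fold above PREANTRAL (adjusted p = 3.21e-09), and of Idh1, a cytosolic source of NADPH, 6.01-fold above (adjusted p = 1.23e-10). Srxn1, sulfiredoxin, which restores overoxidised peroxiredoxins, and Me1, cytosolic malic enzyme and a further source of NADPH, were 3.27- and 3.18-fold higher. Of the 5 detected genes of NADPH supply (9 listed) 2 rose and 2 fell, where 12.8% of all genes rose and 14.5% fell. The 2 that fell were Idh2, 1.70-fold lower, and Me2, 1.49-fold lower. Cbs, Ptges, Slc40a1 (ferroportin) and Cdo1 were 3.89-, 3.01-, 2.16- and 2.09-fold lower, the call of Cdo1 lost in the authors' values and under median scaling. In the former the folds were 6.37 for Mgst2, 1.70 for Srxn1, 2.08 for Cbs and 1.67 for Ptges. Over the span from PRIMARY to ANTRAL, Mgst2, Idh1, Slc6a6 (the taurine transporter) and Srxn1 were 34.6-, 7.75-, 6.08- and 4.84-fold higher, and Slc7a11, Ggct, Ltc4s and Cdo1 were 8.67-, 8.51-, 7.83- and 7.43-fold lower. Slc7a11 and Ltc4s were each detected on 1 of 3 ANTRAL arrays, so that their folds are set against a level near background. In the authors' values the folds were 8.48 for Mgst2, 1.88 for Srxn1, 2.15 for Slc7a11, 5.61 for Ggct, 1.99 for Ltc4s and 3.39 for Cdo1. The changes of Mgst2 and Idh1 stood beside the same marker shifts as those of the members in these comparisons.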

How the data were processed

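RNA levels were read on Illumina bead arrays, with 3 arrays for each of 7 stages. The deposited table holds, per the file headers, an average signal intensity and a detection p-value for each of 25697 probes on each array, not normalized. The authors' deposited log2 values of 23286 probes served as an alternative; their scale was read from the values, limma is named by the submitters' processing notes without a version, and the transformation, normalization and probe filter are not given in the sources used here. All columns of per-sample values were used.

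Probes were named from the platform annotation supplied for this work: 21857 carry 1 symbol, 0 several and 3840 none, and 21846 matched RefSeq by Entrez number, with 0 symbols differing. Signals were background corrected and quantile normalized by neqc (limma 3.58.1, R 4.3.3; offset 16, with negative control parameters inferred from the detection p-values), and probes detected at p under 0.05 on at least 3 arrays were kept. The detection p-values of the ANTRAL columns that share a name were matched by their place beside the signal and by their order with it. A single linear model with 1 mean for each stage was fitted to all 21 arrays in limma (lmFit, eBayes, 2-sided), with Benjamini-Hochberg adjustment over 13626 probes in each comparison and for the F test. Where a gene had several detected probes, which 2525 of 10067 genes did, its brightest probe by mean level over the series stood for it. The number of arrays limits the precision. The steps were tested on simulated data with known changes.

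The members and lists were chosen with earlier results of these data known. The rule for named genes took the core enzymes, every transferase that passed the F test, up to 10 members in each direction of each comparison by size, and up to 4 further pathway genes in each direction; others are given as counts. Alternatives were no background correction, median scaling, no detection filter, the authors' values, 1 probe per gene, only the stages compared, the repeat number as a block, PMD3 repeat 2 and TLS repeat 2 left out together, and each array left out in turn.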

Additional observations from a re-analysis of the deposited data

How the results depend on the processing

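No change of a named gene reversed its direction in any alternative. Of the 74 member changes by brightest probe, 16 were lost with median scaling, 6 with the authors' values, 2 without background correction, 3 without the detection filter, 7 when only the stages compared were fitted, 1 without PMD3 repeat 2 and TLS repeat 2, 0 with 1 probe per gene, and 98 of 1554 across the arrays left out one at a time. Some counts of member probes moved by more than 1.5 times, that of TLS against PRIMARY most often. The cause was not tested beyond what the construction of each alternative shows. TLS against PRIMARY went from 2, both higher, to 5, all lower, with median scaling, to 0 with 1 probe per gene, to 0 with only the stages compared and to 1 without the PMD3 and TLS arrays named above. PMD4 against PMD3 went from 2 to 1 and PRIMARY against PMD4 from 26 to 17 with 1 probe per gene, which counts 48 genes in place of 64 probes. MLS against TLS went from 3 to 0 with only the stages compared. Leaving out 1 array at a time gave 1 to 3 (PMD4 against PMD3), 17 to 28 (PRIMARY), 0 to 8 (TLS), 1 to 3 (MLS), 9 to 13 (PREANTRAL), 13 to 19 (ANTRAL against PREANTRAL), 27 to 41 (ANTRAL against PRIMARY) and 45 to 51 (F test).

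With median scaling the median difference of all probes in TLS against PRIMARY moved from -0.01 to -0.14. The share of higher probes among those called moved with it from 56.3% to 27.8%, and also from 63% to 73.5% in PMD4 against PMD3, from 54.1% to 71% in MLS, from 40.9% to 23.3% in PREANTRAL and from 47.6% to 67% in ANTRAL against PREANTRAL. With the authors' values it was 44.5% in PMD4 against PMD3 and 42.7% in TLS, and without background correction 50.6% in PMD4 against PMD3.

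The repeat numbers gave no pairing that held across the stages. Deviations from the stage means had a median correlation of 0.04 over 45 pairs of arrays with the same number (range -0.17 to 0.70). Over 90 pairs with different numbers it was -0.01. Correlations over 0.1 came in 11 of the 45 pairs and in 12 of the 90. The highest, 0.70, joined PMD3 repeat 2 and TLS repeat 2, which stood furthest from their own stages. Whether the repeat numbers mark arrays handled together was not tested. As a replicate block over the arrays that carry a number, they left 10 member probes called in ANTRAL against PREANTRAL in place of 18, with 1 ANTRAL array, assumed to vary like the other stages; 18 of the 74 member changes were lost, those of Txnrd3, Gclm, Gstm5 and Prdx4 in ANTRAL among them, and the other counts stayed within 1.5 times.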
